A study of Rattus norvegicus with 6 samples.

Results

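The corticotropin-releasing factor (CRF) system is a small family of peptides with their receptors and a binding protein. It has 7 genes in the rat, namely Crh, which encodes CRF, the urocortin genes Ucn, Ucn2 and Ucn3, the receptor genes Crhr1 and Crhr2, and Crhbp, which encodes the CRF-binding protein. They were taken from a table of 19418 transcript clusters, the gene-level units of an exon array, by the symbol each cluster carried, and a cluster had to carry 1 symbol only. Ucn, Ucn2, Crh and Crhbp had 1 such cluster each, so that 4 of the 7 genes, among 13215 genes with a symbol in all, had a value. Ucn3, Crhr1 and Crhr2 were not analysed here.

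All rats were of the Wistar strain, and the study's methods state that those operated on were male. RNA of L5 dorsal root ganglia (DRG) 7 days after transection of the L5 spinal nerve (SNT), a model of neuropathic pain, was compared with that of L5 DRG of naive rats that had not been operated on. There were 3 SNT arrays and 3 naive arrays, each with polyadenylated RNA pooled from 4 animals, which makes 12 animals per group. No animal carried a transgene or received a drug as far as the labels state, and no sham-operated rats were included, so that effects of the surgery and of the nerve cut cannot be told apart. Values are log2 of normalised probe intensity, and a difference of 1 is a 2-fold difference in intensity.

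CRF and the urocortins act on the receptors CRFR1 and CRFR2, which belong to the secretin family (class B1) of G protein-coupled receptors and mainly raise cyclic AMP through the stimulatory G protein. CRF acts mainly on CRFR1, urocortin binds both receptors, and urocortins 2 and 3 prefer CRFR2. CRF from the hypothalamus drives the release of adrenocorticotropic hormone and thereby of glucocorticoids, whereas urocortins are also made in peripheral tissues. The CRF-binding protein is secreted and takes up CRF and urocortin, which lowers the amount free to bind receptors.

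The sequences upstream of Ucn and Ucn2 are shown because these were the genes that rose after SNT. Each window holds 250 bases before and 50 bases from the annotated start of the gene on the GRCr8 assembly, as given by RefSeq, which covered 6 of the 7 genes. The Ucn window lies at chr6:30957836-30958135 on the plus strand and has 59% G and C. The Ucn2 window lies at chr8:118515861-118516160 on the plus strand and has 57% G and C. Capitals mark a match to the cyclic AMP response element, TGACGTCA, in the Ucn window and to the AP-1 element, TGAGTCA, in the Ucn2 window.
Ucn: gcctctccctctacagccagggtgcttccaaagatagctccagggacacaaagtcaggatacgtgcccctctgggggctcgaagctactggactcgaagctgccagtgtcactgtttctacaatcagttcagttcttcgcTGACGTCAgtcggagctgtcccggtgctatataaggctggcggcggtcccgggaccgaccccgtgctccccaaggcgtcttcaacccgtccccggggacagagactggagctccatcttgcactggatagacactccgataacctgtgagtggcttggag
Ucn2: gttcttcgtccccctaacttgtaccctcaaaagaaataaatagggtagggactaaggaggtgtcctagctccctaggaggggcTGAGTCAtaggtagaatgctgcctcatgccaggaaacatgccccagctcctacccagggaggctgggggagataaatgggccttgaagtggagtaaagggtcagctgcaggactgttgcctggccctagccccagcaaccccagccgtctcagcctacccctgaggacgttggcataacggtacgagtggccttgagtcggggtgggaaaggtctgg
The match in Ucn spans bases -110 to -103 from the start and that in Ucn2 bases -167 to -161. Both strands were searched for these elements and for TTCNNNGAA, the STAT element, and no motif overlapped another. The windows of Crhbp, Ucn3, Crhr1 and Crhr2 held none of the 3 motifs, and the STAT element was in none of these windows. Among all 33469 rat promoter windows of the same length, 1.83% held the cyclic AMP response element, 4.63% the AP-1 element and 8.87% the STAT element. The motifs were chosen after the windows had been read, and a match describes the letters and not a site that was bound.

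The labels were checked with Atf3, which encodes a transcription factor that injured neurons switch on. Atf3 stood at 11.4, 11.5 and 11.6 on the SNT arrays, against 7.74, 7.69 and 7.74 on the naive arrays, so the labels and this gene matched on all 6. SNT replicate 1 stood apart from its group: over all clusters its r was 0.982 to the other SNT arrays and 0.978 to 0.981 to those of naive rats. The remaining SNT pair reached r = 0.990, and pairs of naive arrays reached 0.994 to 0.996. Array medians ranged from 6.18 to 6.31 for SNT and from 6.11 to 6.16 for naive. The pools were separate groups of animals.

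Within the CRF system, both measured urocortin genes rose after SNT, and neither Crh nor Crhbp passed the test. On these arrays the fitted change of Ucn2 was 6.04-fold (95% interval 3.84-fold to 9.51-fold), and that of Ucn 2.47-fold (2.15-fold to 2.83-fold). Crh was measured at 0.83-fold and Crhbp at 0.967-fold, with intervals that include no change. Thus 2 of the 4 measured genes were called at a false discovery rate (FDR) of 0.1, both of them higher in SNT and both by 2-fold or more. Over all clusters tested, 32.1% were called, 17.3% as higher in SNT and 14.8% as lower, and 1.85% were called and at least 2-fold higher. The study had itself listed Ucn and Ucn2 as raised in these samples, so the 2 calls are not independent evidence of their direction.

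**Figure D1:**
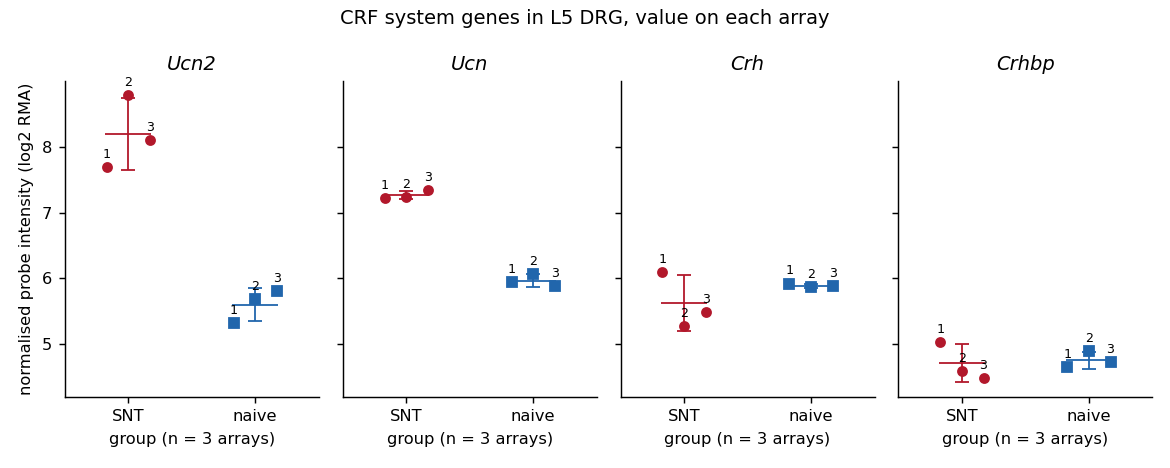
Log2 normalised probe intensity of Ucn2, Ucn, Crh and Crhbp on each array, with SNT (circles) left of naive (squares), numbered by replicate; lines and bars are the mean ± SD of 3 arrays, and levels of different genes are not comparable. SNT arrays of Ucn2 (7.69 to 8.78) and Ucn (7.22 to 7.34) lie above all naive arrays, whereas those of Crh and Crhbp overlap the naive range.

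Ucn encodes urocortin, which binds both CRF receptors. It stood at 7.22, 7.24 and 7.34 in SNT replicates 1 to 3, against 5.95, 6.07 and 5.88 in naive replicates 1 to 3. The groups did not overlap, and the lowest SNT array lay well above the highest naive array. Ucn averaged 7.27 ± 0.06 in SNT and 5.97 ± 0.10 in naive (SD, n = 3 each). The log2 fold change was 1.30 ± 0.08 (SE), with an adjusted p of 0.00193 from limma. By size of rise this placed Ucn at rank 194 of all clusters, and by p-value at rank 14. SNT arrays spread little for this gene, and each of them lay 1.26 to 1.37 above the naive mean.

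Ucn2 encodes urocortin 2, a ligand that prefers CRFR2. Its values were 7.69, 8.78 and 8.11 in SNT replicates 1 to 3 and 5.32, 5.68 and 5.80 in naive replicates 1 to 3. Here too the groups did not overlap, but the SNT arrays were further apart than for Ucn, with replicate 2 highest and replicate 1 lowest. The means were 8.19 ± 0.55 in SNT and 5.60 ± 0.25 in naive (SD, n = 3 each). The log2 fold change of Ucn2 was 2.59 ± 0.28 (adjusted p = 0.00428, limma), which is rank 22 by size of rise and rank 169 by p-value. Within each array the cluster of Ucn2 stood at percentiles 72.9, 86.9 and 78.8 of all clusters in SNT, against 37.9, 43.0 and 44.8 in naive. Those of Ucn were 65.1, 65.6 and 67.2 in SNT, against 47.9, 48.8 and 46.1 in naive. These ranks do not depend on the scaling between arrays, and they separated the groups in the same way as the log2 values. Groups that do not overlap were common in the table, being found for 44.5% of clusters.

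The urocortin genes were then compared with each other in the amount of change. The log2 value of Ucn2 minus that of Ucn was 0.471, 1.54 and 0.770 on the SNT arrays, against -0.633, -0.388 and -0.0759 on the naive arrays. Its sign on an array has no meaning, since levels of different clusters are not comparable, and only its change between the groups was used. Its mean was 0.927 ± 0.552 in SNT and -0.366 ± 0.279 in naive (SD, n = 3 each), so on these arrays the log2 change of Ucn2 exceeded that of Ucn by 1.29 (exact permutation test, two-sided, p = 0.1, the smallest this design allows). Leaving out 1 array at a time gave 0.986 to 1.52. Each gene was read by its own probes and no other measure of these genes was analysed here. This order of the changes therefore holds for the array values only.

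**Figure D2:**
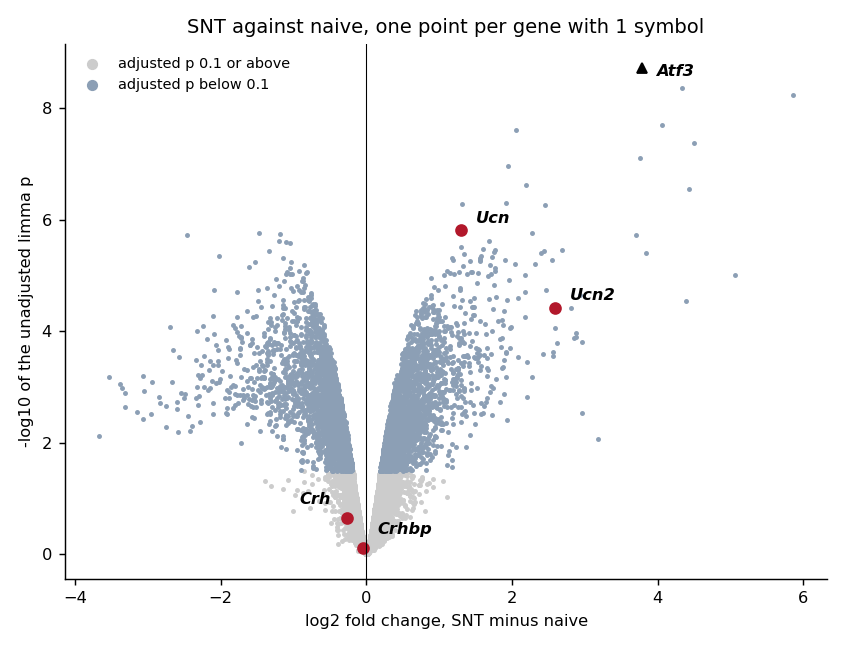
Log2 fold change, SNT minus naive (horizontal), against -log10 of the unadjusted limma p (vertical), 1 point per gene with 1 symbol, shaded by whether the adjusted p was below 0.1. Ucn (1.30) and Ucn2 (2.59) lie among the called rises, with Ucn higher on the p axis and Ucn2 farther to the right, and Crh (-0.27) and Crhbp (-0.05) lie in the uncalled centre.

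Crh encodes CRF itself, the ligand for which the family is named. It stood at 6.10, 5.27 and 5.49 in SNT, against 5.92, 5.86 and 5.88 in naive. SNT replicate 1 lay above all naive arrays and SNT replicates 2 and 3 lay below them, so the groups overlapped. The means were 5.62 ± 0.43 in SNT and 5.89 ± 0.03 in naive (SD, n = 3 each). The log2 fold change of Crh was -0.27 ± 0.20 (95% interval -0.75 to 0.21, adjusted p = 0.373, limma). This result rests on 1 array: without SNT replicate 1, the array that stood apart, the log2 fold change was -0.51 and the adjusted p from limma was 0.0094. Weighting arrays by their quality gave -0.40 and an adjusted p of 0.0623.

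Crhbp encodes the binding protein. Its values were 5.04, 4.60 and 4.49 in SNT and 4.65, 4.90 and 4.72 in naive. The SNT arrays lay on both sides of the naive range, again with replicate 1 highest. Crhbp averaged 4.71 ± 0.29 in SNT and 4.76 ± 0.13 in naive (SD, n = 3 each), a log2 fold change of -0.05 ± 0.16 (95% interval -0.42 to 0.32, adjusted p = 0.845, limma). The direction of this difference turned when any of 3 arrays was left out. By group mean, Crhbp lay above 25 of 32 olfactory receptor genes in naive and above 23 in SNT. Crh lay above 31 of them in naive and 30 in SNT. Whether these genes mark a background was not tested. No background level was used here, so nonspecific signal in low values cannot be judged. Intervals this wide do not show that Crh or Crhbp stayed the same.

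SNT arrays departed from the naive mean in a different order for each of these genes. For Ucn2 the departures were 2.09, 3.18 and 2.51 in SNT replicates 1 to 3, whereas for Ucn they were 1.26, 1.27 and 1.37. For Crh they were 0.21, -0.615 and -0.40, and for Crhbp 0.28, -0.16 and -0.27. Replicate 1 was thus the lowest SNT array for both urocortin genes and the highest for Crh and Crhbp.

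Markers of other cell types moved on the same arrays. Of all clusters 32.1% were called, 17.3% as higher in SNT and 14.8% as lower. In bulk ganglia a smaller number of cells of a type and less RNA per cell cannot be told apart. All 14 measured macrophage and monocyte markers rose, with a median log2 fold change of 1.67, among them the complement genes C1qa (2.31) and C1qb (2.46). Their log2 values summed to 124.6 to 137.2 on the SNT arrays and to 103.8 to 110.6 on the naive arrays, and the median departures were 1.16, 2.19 and 1.65 in SNT replicates 1 to 3. Of 8 T and natural killer cell markers 6 rose and 0 fell (median 1.06), led by Gzmb, a cytotoxic granule protease (4.06). Their sums were 54.3 to 59.6 in SNT and 44.1 to 45.4 in naive, and their departures were 0.78, 1.39 and 1.00. Of 13 sensory neuron markers 0 rose and 9 fell (median -0.69), for example the neurofilament gene Nefh (-1.33) and the transcription factor Isl1 (-1.62). The 4 that did not pass were Tubb3 (0.04), Stmn2 (0.04), Prph (-0.23) and Uchl1 (-0.27). The neuronal sums were 132.0 to 141.0 in SNT and 145.8 to 147.2 in naive, with departures of -0.44, -0.97 and -0.75. Across the SNT arrays Ucn2 had the order of the macrophage and T cell markers and the inverse of that of the neuronal markers. The fibroblast markers (0.329, 0.727 and 0.723 in SNT replicates 1 to 3) and the endothelial markers (-0.022, 0.228 and 0.141) had that order too. Over all clusters, r to the naive arrays was 0.978 to 0.981, 0.957 to 0.964 and 0.962 to 0.969 in SNT replicates 1 to 3. By this measure too, replicate 2 was farthest from naive and replicate 1 nearest, so the order is not particular to Ucn2 or to these markers. The departures of Ucn were nearly equal. The part of any of these cell types in the rise of Ucn2 was not tested.

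The other marker lists moved less. Of 7 mast cell markers Hdc, which makes histamine, rose (0.59) and the growth factor receptor Kit fell (-0.56), and the remaining 5, among them the tryptase gene Tpsb2 (0.22, adjusted p = 0.131, limma), did not pass. The call of Kit was lost without naive replicate 1, 2 or 3. Of 7 satellite glial markers 2 rose and 3 fell (median -0.16). Of 5 myelinating Schwann cell markers 2 rose and 0 fell (median 0.02), of 4 fibroblast markers 3 rose and 0 fell (median 0.63), and of 4 endothelial markers 1 rose and 0 fell (median 0.15). None of the 2 B cell, 4 skeletal muscle and 1 red blood cell markers passed, and their medians were -0.59, 0.05 and -0.31. That of the B cell markers was -0.23 without naive replicate 3. Over all clusters the median log2 fold change was 0.0874, and 32.1% were called. The calls among the mast cell and endothelial markers were close to that share.

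**Figure D3:**
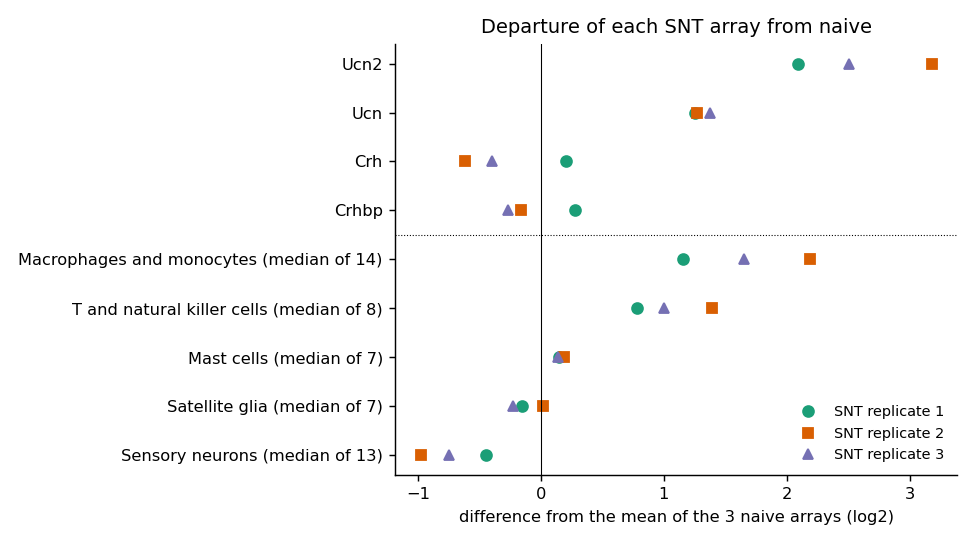
Difference of each SNT array from the mean of the 3 naive arrays, in log2 units (horizontal), for the 4 CRF system genes and for the median gene of 5 marker lists, with 1 symbol per SNT replicate. The order of the SNT arrays for Ucn2 (2.09, 3.18 and 2.51 in replicates 1 to 3) is also that of the macrophage markers (1.16, 2.19 and 1.65). The T and natural killer cell markers share it, and over all clusters the SNT arrays departed from naive in that order too. The Ucn points nearly coincide.

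Downstream of the receptors, 13 genes of G protein coupling and receptor desensitisation were measured. Gnas, which encodes the alpha subunit of the stimulatory G protein, was on the list but was not among the 13 measured. The main coupling of the CRF receptors was therefore not covered. Of the 13 genes 2 rose, 5 fell and 6 did not pass, with a median log2 fold change of -0.17. For this and the following lists, the share of all clusters called was 32.1%. The largest change was in Rapgef4, which encodes Epac2, an exchange factor activated by cyclic AMP. Rapgef4 stood at 7.59, 6.45 and 6.77 in SNT, against 8.72, 8.79 and 8.68 in naive, with a log2 fold change of -1.80 ± 0.27 (adjusted p = 0.00757, limma). All SNT arrays of Rapgef4 lay below the naive arrays, and replicate 1 was again nearest to them. The inhibitory G protein subunit Gnai1 (-0.51 ± 0.08), Gnao1, the alpha subunit abundant in neurons (-0.79 ± 0.19), and Gnaq, which couples receptors to phospholipase C (-0.46 ± 0.08), fell. The arrestin genes, whose products uncouple and internalise receptors, moved in opposite directions, with Arrb1 at 0.46 ± 0.10 (adjusted p = 0.0175, limma) and Arrb2 at -0.39 ± 0.09 (adjusted p = 0.0216, limma). Grk6, a receptor kinase, rose by 0.54 ± 0.09. These 7 calls held in all 14 alternative settings.

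Among 10 genes of the cyclic AMP-dependent kinase and the CREB family, 4 rose and 1 fell, with a median of 0.20. Prkaca, a catalytic subunit of the kinase, stood at 8.29, 8.34 and 8.42 in SNT and at 7.62, 7.85 and 7.86 in naive. The groups did not overlap, and the log2 fold change of Prkaca was 0.57 ± 0.10 (adjusted p = 0.00988, limma). The CREB family members Creb5 (0.37 ± 0.08) and Crem (0.30 ± 0.09) and the coactivator gene Crebbp (0.34 ± 0.11) rose, and Atf2 fell by 0.30 ± 0.09. The call of Creb5 held without each array in turn but not under 3 other normalisations (adjusted p = 0.103 to 0.146, limma). Crem was lost under the same 3 normalisations (adjusted p = 0.102 to 0.232, limma), Atf2 under quantile normalisation and cyclic loess (adjusted p = 0.179 and 0.183, limma) and Crebbp with median centring (adjusted p = 0.256, limma). Of the left-out arrays, Crem was not called without naive replicate 1 or 2 or SNT replicate 2 or 3, Crebbp without any array but SNT replicate 1, and Atf2 without any naive array or SNT replicate 2. Centring each array on its median left 1 rise and 1 fall in this list. Creb1, which encodes CREB, was measured at 0.07 ± 0.17 (adjusted p = 0.787, limma).

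In the hypothalamic-pituitary-adrenal axis and the glucocorticoid response, 16 genes were measured, of which 2 were called higher and 4 lower in SNT, and the median was 0.02. Taken over both directions, 6 of the 16 were called, close to the 32.1% of all clusters. Tsc22d3, a glucocorticoid-induced gene also known as GILZ, fell the most. It stood at 9.09, 8.66 and 8.45 in SNT, against 9.84, 10.06 and 10.05 in naive, a log2 fold change of -1.25 ± 0.17 (adjusted p = 0.00614, limma). The mineralocorticoid receptor gene Nr3c2 (-0.82 ± 0.14) and the melanocortin receptor gene Mc4r (-0.87 ± 0.22) also fell, as did Mrap, a melanocortin receptor accessory protein (-0.38 ± 0.11). Avp, which encodes vasopressin, rose by 0.40 ± 0.08, and Sgk1, a kinase gene induced by glucocorticoids, by 0.67 ± 0.23. The calls of Tsc22d3, Nr3c2 and Avp held without each array in turn, whereas that of Mc4r was lost without naive replicate 1 (adjusted p = 0.116, limma), that of Sgk1 without any array but SNT replicate 1 and with median centring (adjusted p = 0.144, limma), and that of Mrap without any array but SNT replicate 1. The glucocorticoid receptor gene Nr3c1 was measured at 0.07 ± 0.15 (adjusted p = 0.781, limma), Fkbp5, another glucocorticoid-induced gene, at -0.10 ± 0.11 (adjusted p = 0.531, limma), and Pomc, the precursor of adrenocorticotropic hormone, at 0.27 ± 0.14 (adjusted p = 0.227, limma).

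Of 12 other class B1 receptor genes, relatives of the CRF receptors, 1 rose and 2 fell, with a median of 0.14. These 3 calls of 12 are no larger a share than the 32.1% of all clusters, and the median was 0.039 without SNT replicate 1 and 0.0491 with median centring. The glucagon receptor gene Gcgr rose by 0.36 ± 0.11 (adjusted p = 0.0527, limma). The parathyroid hormone receptor gene Pth1r (-0.37 ± 0.12, adjusted p = 0.0654, limma) and Vipr2, a receptor of vasoactive intestinal peptide (-0.29 ± 0.10, adjusted p = 0.0871, limma), fell. Each of these 3 calls was lost without naive replicate 1, naive replicate 2, naive replicate 3 or SNT replicate 2, and those of Pth1r and Vipr2 also without SNT replicate 3. Olfactory receptor genes, 32 in number, had 4 rises and 0 falls, with a median of 0.11.

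**Figure D4:**
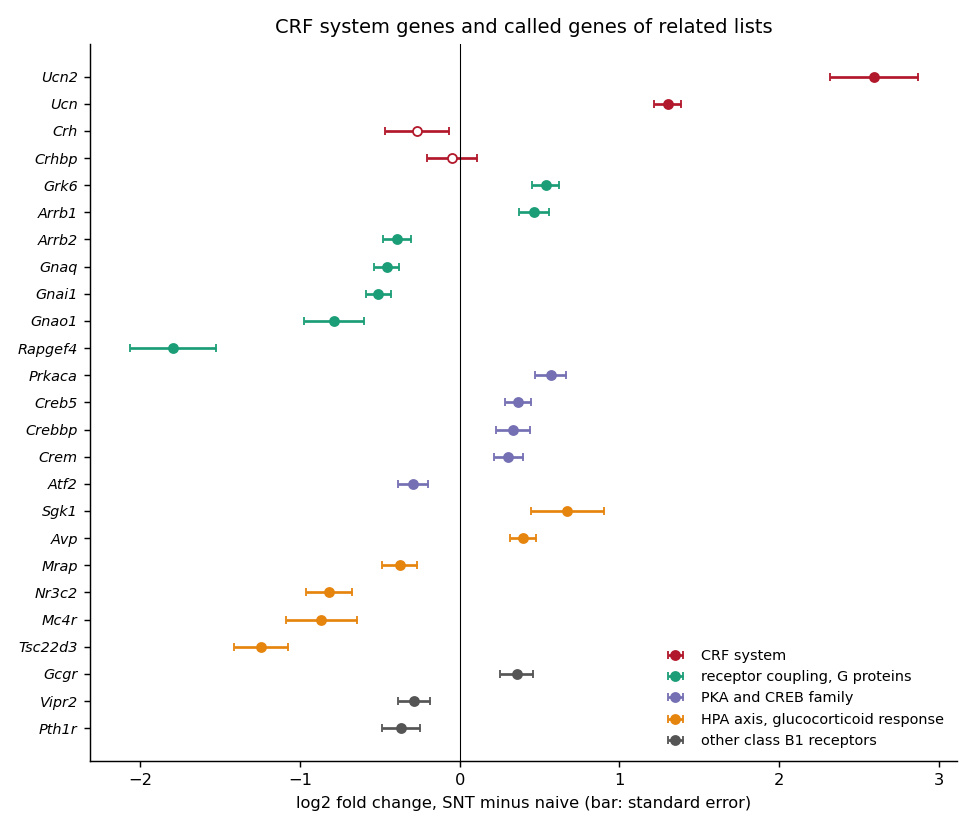
Log2 fold change, SNT minus naive, with its standard error, for the 4 CRF system genes (open circles did not pass an adjusted p of 0.1) and for the 21 called genes of 4 related lists, coloured by list. Ucn2 (2.59) and Ucn (1.30) lie to the right of every called gene of these lists, and Rapgef4 (-1.80) lies farthest to the left.

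The genes whose values over the 6 arrays were most like those of Ucn were Mmd (r = 0.9997), the muscle LIM protein gene Csrp3 (r = 0.9988), the growth cone protein gene Gap43 (r = 0.998), Vtcn1 (r = 0.9976) and Nsg1 (r = 0.997). Their log2 fold changes were 1.91, 4.50, 1.19, 1.31 and 0.89. Closest to Ucn2 were Tpbg (r = 0.9995), the RNA helicase gene Dhx38 (r = 0.9987), Gabarap, which acts in autophagy (r = 0.9984), Mcm2, a subunit of the replicative helicase (r = 0.9984), and Gna15, a G protein alpha subunit of blood cells (r = 0.9982). Their log2 fold changes were 1.08, 0.13, 0.32, 0.78 and 1.44. A high correlation was common, since the arrays form 2 groups that differ: of 13214 other genes 1463 had r above 0.9 with Ucn and 1869 with Ucn2.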

How the data were processed

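The authors hybridised the 6 RNA pools to rat exon arrays (Affymetrix Rat Exon 1.0 ST) and deposited log2 values per transcript cluster. These were made with oligo by robust multi-array average (RMA: background correction, quantile normalisation, median polish). The versions of oligo and RMA were not given in the sources used here. The study names nonspecific binding to probes and signal saturation as limits of microarrays. Precision is limited by the number of arrays, which have no read depth. Sequencing data of these pools were not analysed here.

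SNT was compared with naive by limma 3.58.1 (lmFit and eBayes) under R 4.3.3. Tests were two-sided, p-values were adjusted over 19418 clusters by the Benjamini-Hochberg method, the FDR was 0.1 and no block was used. The script was tested on simulated data. Of 13327 clusters with 1 symbol, 13232 matched a RefSeq gene identifier. This match was by identifier because another rat gene carries Ucn2 as an older synonym, and it altered 0 symbols. The genes themselves were selected by the symbol of the cluster. A gene was represented by its cluster with the highest mean over the 6 arrays. Genes named were drawn from the measured CRF system genes, Atf3, the 4 of smallest adjusted p in each pathway or marker list and at most 2 called genes against its median, and the 5 genes most correlated with each called CRF gene. Arrb2, Gnao1, Sgk1, Mrap, Creb1, Nr3c1, Fkbp5, Pomc, Tubb3, Stmn2, Prph and Uchl1 were named in addition, after their values were seen. For brevity not every gene that this rule admits is printed. The CRF genes, lists and tests were chosen with earlier results of these data known. Alternatives were other normalisations, a filter on dim clusters, other moderation, array weights, a replicate block and leaving out each array.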

Additional observations from a re-analysis of the deposited data

How the results depend on the processing

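Across 14 alternatives Ucn kept its rise (1.21 to 1.35, adjusted p 0.000513 to 0.02, limma) and so did Ucn2 (2.30 to 2.85, adjusted p 0.000948 to 0.0302, limma). Crh became a call with array weights (-0.40) and, leaving out 1 array at a time, ranged from -0.51 to -0.10, so that 3 CRF genes were called with array weights or without SNT replicate 1. Crhbp turned to 0.02 without naive replicate 2, 0.01 without SNT replicate 2 and 0.0615 without SNT replicate 3 (range over left-out arrays -0.21 to 0.0615). The number of clusters called, 6232, ranged from 3499 to 7077 when 1 array was left out, with 3499 without naive replicate 1 and 3745 without naive replicate 2. With median centring of the arrays 1869 clusters rose and 3403 fell, in place of 3367 and 2865. Of list medians, that of the glucocorticoid axis turned to -0.0707 with median centring and lay between -0.0265 and 0.0642 when 1 array was left out (below 0 without naive replicate 2, SNT replicate 1 or SNT replicate 2). That of Schwann cells turned to -0.0634 with median centring and lay between -0.129 (without naive replicate 2) and 0.148, also below 0 without SNT replicate 3. That of skeletal muscle turned to -0.0328 with median centring and lay between -0.249 (without SNT replicate 3) and 0.224, that of olfactory receptors turned to -0.0777 without dim clusters, and the value of the only red blood cell marker lay between -0.613 and 0.127 (without SNT replicate 1). Without SNT replicate 3 the median of satellite glia was -0.065 and that of endothelium 0.0923 (0.0835 without naive replicate 2), and median centring gave 0.112 for the CREB family, -0.254 for G proteins, 0.0855 for mast cells, 0.0597 for endothelium, -0.248 for satellite glia and 0.0193 for olfactory receptors. The cause was not tested. Deviations of same-numbered arrays had r = -0.0747, -0.149 and 0.0540, and those of arrays with unlike numbers -0.184 to 0.250. With 3 arrays per group these values neither show nor exclude a pairing. With the replicate number as a block 4700 clusters were called (Ucn adjusted p = 0.0117, Ucn2 0.0096, Crh 0.331 and Crhbp 0.861, limma), and the same 2 CRF genes passed, while the calls of Crem, Crebbp, Atf2, Mrap, Gcgr, Pth1r and Vipr2 were lost (adjusted p 0.106 to 0.145). Without a background level, low values have no detection limit here.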
